A study of Caenorhabditis elegans with 2 samples.

Results

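The 261 genes that Ensembl annotates as microRNA (miRNA) genes on WBcel235 were examined among 46926 annotated genes of Caenorhabditis elegans for binding of SNPC-4. Membership was set by annotated biotype alone, without any measured value. The chromatin immunoprecipitation libraries came from whole L2 larvae of strain OP179, of pooled sexes, which carry the unc-119(ed3) III allele and the wgIs179 insertion of eGFP-tagged snpc-4. Both libraries share this genotype and stage, and they form 1 group of 2 biological replicates with no second condition. Peaks come from all tissues of the animal together, so no signal can be assigned to a cell type. No read counts were at hand, so sequencing depth was unknown.

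SNPC-4 belongs to the SNAPc complex, which recognises a short element before small nuclear RNA (snRNA) genes and helps to recruit RNA polymerase there. Most miRNA genes are instead transcribed by RNA polymerase II as longer capped primary transcripts, from which a hairpin is cut and processed to a mature strand of its 5' (5p) or 3' (3p) arm. The mature strand recognises its targets mainly through bases 2 to 8, the seed.

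A gene was called bound when a summit of the authors' reproducible peak list lay within 250 bp of its annotated body. That list, named for the irreproducible discovery rate (IDR) procedure that made it, holds the 1864 strongest of 30000 pooled candidate peaks. Signal is the authors' peak strength and was compared only within a list. By this measure 10 of 261 miRNA genes were bound, or 3.83% (exact Clopper-Pearson 95% interval 1.85 to 6.93%, which covers counting of genes only). Of all annotated genes 4.39% met the same rule, so the miRNA class as a whole lay near this background. The background includes 15363 piRNA genes, of which 0.332% met the rule. Of protein-coding genes, whose bodies differ in length, 6.69% did, and of genes annotated as ncRNA 5.38% did. A window of 250 bp around the annotated 5' end alone, which does not depend on gene length, held an IDR summit for 9 miRNA genes, or 3.45%, and for 3.07% of all genes. There the shares were 0.312% of piRNA genes, 3.89% of protein-coding genes and 4.87% of ncRNA genes.

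The bound genes were mir-2214, mir-8196a, mir-5549, mir-8196b, mir-5595, mir-54, let-7, mir-53, mir-49 and mir-80, in falling order of signal. They lay under 10 different peaks. Each had 2 annotated mature arms, as had 188 of the 251 unbound miRNA genes. mir-2214, mir-8196a and mir-8196b are shown as whole hairpins because their summits lay where summits lie at snRNA genes. They are read from the RefSeq genome of WBcel235 on the gene strand, 5' to 3', at chrIII:7278715-7278778 (plus strand), chrX:2329038-2329103 (plus) and chrX:14324406-14324470 (minus), and capitals mark the annotated mature arms.
mir-2214 hairpin: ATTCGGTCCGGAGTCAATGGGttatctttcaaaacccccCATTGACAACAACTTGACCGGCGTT
mir-8196a hairpin: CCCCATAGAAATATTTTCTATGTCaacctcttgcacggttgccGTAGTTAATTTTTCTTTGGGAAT
mir-8196b hairpin: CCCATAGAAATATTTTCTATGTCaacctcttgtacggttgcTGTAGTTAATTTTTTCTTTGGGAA

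mir-8196a and mir-8196b are a sequence pair, with 62 of 67 aligned hairpin columns identical, or 92.5%. Their 5p arms start 1 annotated base apart, so that their annotated seeds differ, CCCAUAG in mir-8196a and CCAUAGA in mir-8196b.

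The 5 bound genes whose seed is shared with other miRNA genes are shown by that strand, as RNA, with the seed in capitals.
let-7-5p: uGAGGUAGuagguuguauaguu
mir-53-5p: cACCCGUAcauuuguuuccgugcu
mir-54-3p: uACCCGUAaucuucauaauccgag
mir-80-3p: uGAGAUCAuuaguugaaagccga
mir-49-3p: aAGCACCAcgagaagcugcaga

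The seed ACCCGUA is that of the mir-51 family, which acts in embryonic development and comprises mir-51 to mir-56 here. Of its 6 genes, mir-53 and mir-54 were bound, mir-54 through a summit nearer to the 5' end of the noncoding RNA F09A5.11. The seed GAGGUAG is that of let-7 and of its sisters mir-48, mir-84 and mir-241, which time larval development, and of mir-795. By the window around the gene body only let-7 was bound among these 5 genes, and this rests on the length of its gene model, 1732 bp against 96 bp for mir-241. The let-7 summit lay at −378 bp from its hairpin, and mir-241 had an IDR summit of signal 30.2 at −376 bp, outside its window. With 250 bp around the hairpin 5' end alone, let-7 was not bound either. The seed GAGAUCA joins mir-80 to mir-81, mir-82, mir-58b, mir-58c and mir-2209a, and mir-80 alone of these 6 was bound. mir-49 shares AGCACCA with mir-83, which had a pooled candidate of signal 6.92 and no IDR summit.

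In the pooled list, mir-2214 had a peak signal of 1021.3 and ranked 30 of 30000. mir-8196a followed with a signal of 389.6 at rank 66, and mir-5549 with 93.8 at rank 243. mir-8196b had a signal of 81.1 at rank 300. How reads that align to both loci of the mir-8196 pair were assigned is not given in the sources used here, so the signals of the pair may not be independent. These 4 genes lay above the third quartile of the IDR list, whose signals had a quartile range of 34.5 to 63.3 and a median of 43.7.

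mir-5595 had a pooled signal of 60.6 at rank 510, mir-54 of 54.3 at rank 621, and let-7 of 50.8 at rank 710. mir-53 had 35.7 at rank 1330, mir-49 had 31.9 at rank 1569 and mir-80 had 28.8 at rank 1802. The last of these was just inside the lowest IDR signal of 28. Just outside it lay mir-8209, with 25.6 at rank 2121. The median of the 10 bound genes was 57.5.

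**Figure D1:**
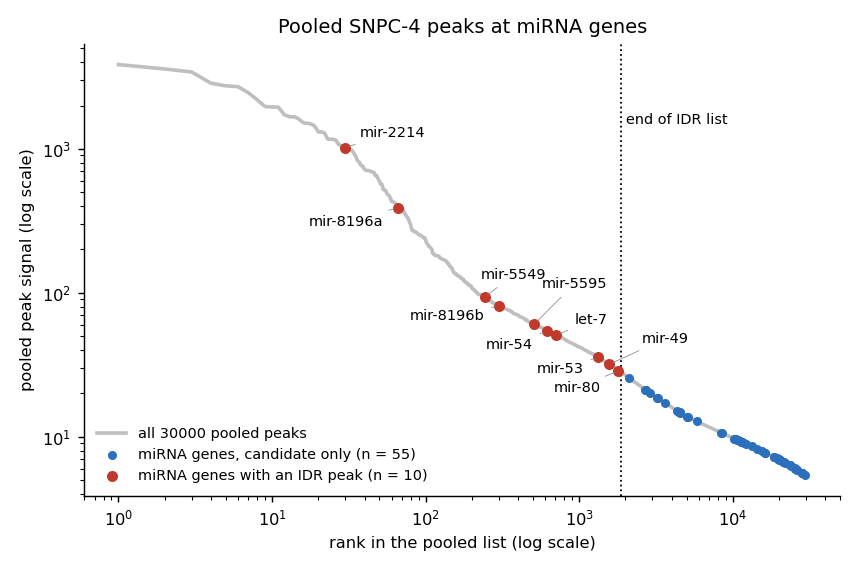
Pooled peak signal (log scale) against rank in the pooled list (log scale). The grey line is all 30000 pooled peaks, red points are the 10 miRNA genes with an IDR peak, blue points the 55 with a weaker candidate only, and the dotted line the end of the IDR list. mir-2214 and mir-8196a stand at ranks 30 and 66, while the 55 weaker candidates range from 25.6 down to 5.41.

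Both replicates were then read apart. At mir-2214 the replicate 1 list gave a signal of 204.6 at rank 34 of 21391, and the replicate 2 list gave 816.6 at rank 29 of 30000. At mir-8196a the values were 83.8 at rank 67 in replicate 1 and 310.0 at rank 67 in replicate 2. At mir-5549 they were 19.5 at rank 318 and 74.5 at rank 234. All 3 were within the top 1.49% of both lists.

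At mir-8196b, replicate 1 gave 15.5 at rank 514 and replicate 2 gave 64.9 at rank 295. At mir-5595 the values were 10.7 at rank 968 and 49.1 at rank 471. At let-7 they were 19.5 at rank 315 and 31.6 at rank 1068. As a share of its list, let-7 stood higher in replicate 1, at the top 1.47% against 3.56%, and the other pair stood higher in replicate 2.

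At mir-49, replicate 1 gave 9.31 at rank 1240 and replicate 2 gave 19.9 at rank 2196. At mir-80 they were 7.34 at rank 1838 and 20.8 at rank 2052. mir-53 had a replicate 2 signal of 34.7 at rank 913, and its nearest replicate 1 summit lay 1253 bp outside the gene. mir-54 had a replicate 2 signal of 44.8 at rank 555, and its replicate 1 summit, with signal 13.0 at rank 703, lay 251 bp outside the gene and so 1 bp beyond the window. Of the 10 bound genes only mir-53 therefore had no replicate 1 summit at its IDR peak.

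**Figure D2:**
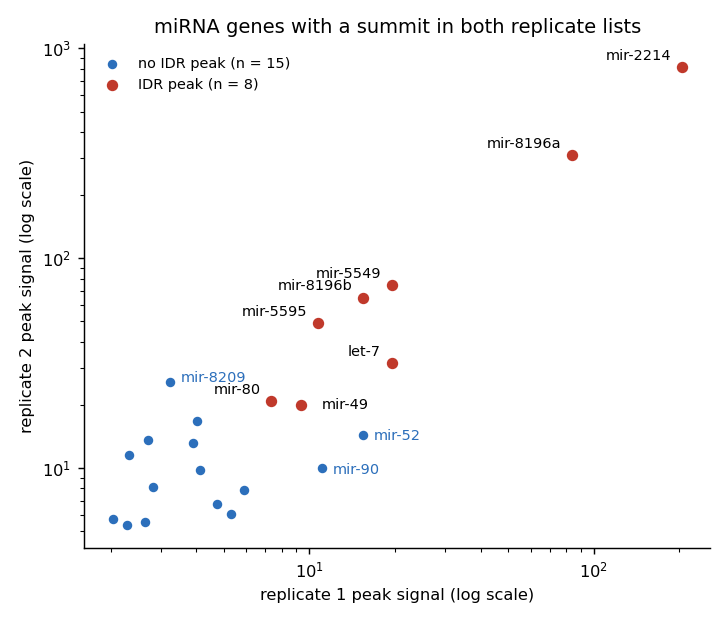
Peak signal in replicate 1 against replicate 2 (both log scales, each in the units of its own list) for the 23 miRNA genes with a summit within 250 bp in both lists. Red points are the 8 with an IDR peak and blue points the 15 without one. mir-2214 and mir-8196a are highest in both replicates, while mir-52 and mir-90 lie to the right with replicate 1 signals of 15.4 and 11.1. At mir-52 and mir-90 the strongest summits of the lists lie at different places.

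The replicate summits of the bound genes are given as a description. The IDR list holds the strongest pooled peaks, so the sets of genes compared here also differ in signal. The gap between the strongest replicate 1 and replicate 2 summits was 1 bp at mir-8196b, 3 bp at mir-2214, 7 bp at mir-5549, 9 bp at let-7 and 13 bp at mir-8196a. It was 23 bp at mir-5595, 30 bp at mir-49 and 77 bp at mir-80. The median over these 8 genes was 11.0 bp, with a range of 1 to 77 bp. For the 15 miRNA genes with a summit in both replicate lists but no IDR summit, the median was 91.0 bp, with a range of 5 to 498 bp.

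All 10 IDR summits lay upstream of the 5' end of the hairpin on the gene strand, at positions from −378 to −24 bp with a median of −125.0 bp, where negative values are upstream. At 3 genes the summit lay 40 to 75 bp upstream of the annotated 5' end of the gene. It was at −56 bp for mir-2214, whose gene model is the hairpin itself. It was at −60 bp for mir-8196a and at −60 bp for mir-8196b, measured from the 5' end of their annotated primary transcripts. Relative to the hairpin of mir-8196a the pooled, replicate 1 and replicate 2 summits were at −104, −93 and −106 bp. Relative to that of mir-8196b they were at −107, −108 and −107 bp.

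The snRNA genes had summits at a like distance. The 37 bound snRNA genes other than the spliced leader (SL) RNA genes and mir-1831 had their summits at a median of −53.0 bp, with a quartile range of −59.0 to −47.0 bp. An IDR summit 40 to 75 bp upstream was found at 0.484% of all annotated genes and at 1.15% of miRNA genes (interval 0.238 to 3.32%). The shares were 29.3% of 99 snRNA genes, 33.3% of 30 SL RNA genes, 10.7% of 346 snoRNA genes and 2.37% of 634 tRNA genes. The 99 include mir-1831, whose summit is also counted for the snRNA gene sup-39. Protein-coding genes had 0.485% and piRNA genes 0.0325%. Genes are not replicates, so no test between these shares was made.

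**Figure D3:**
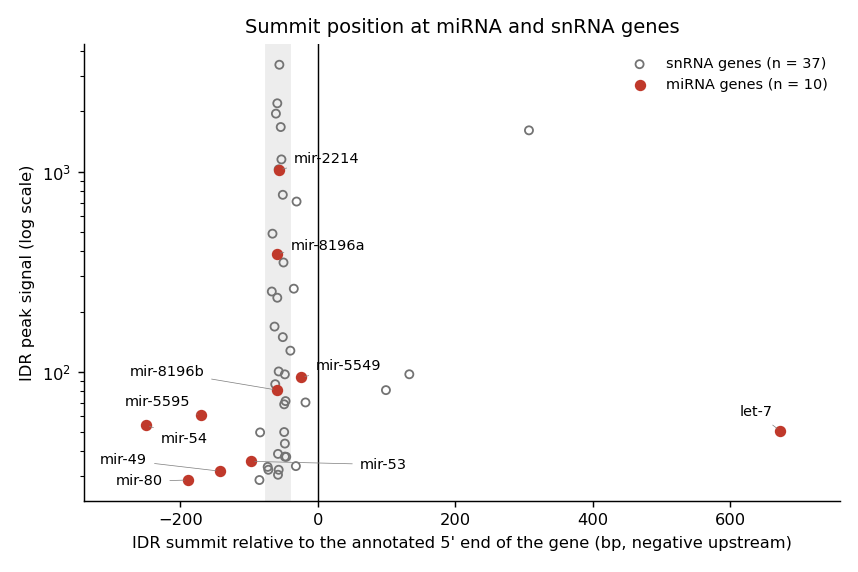
IDR peak signal (log scale) against the summit position relative to the annotated 5' end of the gene in bp, negative upstream. Red points are the 10 bound miRNA genes, open circles the 37 bound snRNA genes, and the grey band spans 40 to 75 bp upstream. mir-2214, mir-8196a and mir-8196b lie in the band with most snRNA genes, and the other 7 lie outside it, let-7 at 672 bp inside its longest annotated transcript.

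The sequence before the genes was therefore read. The 90 bases upstream of each of the 3 genes are shown, at chrIII:7278625-7278714 (plus strand), chrX:2328904-2328993 (plus) and chrX:14324518-14324607 (minus). In mir-2214 the capitals mark TGTCTG and TATATAA. In the mir-8196 pair they mark the stretch of 20 bases that best matched the snRNA element.
mir-2214 upstream: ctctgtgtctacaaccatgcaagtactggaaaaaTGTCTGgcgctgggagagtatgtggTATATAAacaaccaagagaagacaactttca
mir-8196a upstream: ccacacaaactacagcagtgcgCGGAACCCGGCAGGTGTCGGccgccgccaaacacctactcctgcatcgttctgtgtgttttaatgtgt
mir-8196b upstream: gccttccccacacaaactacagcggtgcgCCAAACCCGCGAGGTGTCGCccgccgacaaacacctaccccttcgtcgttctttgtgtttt

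The element was built from the upstream 100 bases of the bound snRNA genes, which gave 37 distinct sequences, and no miRNA gene entered it. It spans 20 bases, 16 of which had 1 base in at least 60% of the sequences. The best match in the 100 bases before each gene was scored in bits against the base composition upstream of miRNA genes. The names R07E5.16 and T11F9.15 are shared by other snRNA genes, some of them unbound, so positions identify the genes used. Not every strongly bound snRNA gene held TGTC in its element. F38E11.11 at chrIV:9444580-9444599 (signal 1947.9) and smy-1 (signal 1607.5) matched 13 of 16 fixed positions without it. Examples from 3 strongly bound snRNA genes that do hold TGTC, sup-6, R07E5.16 and T11F9.15, are set beside the mir-8196 pair. They lie at chrII:12945007-12945026 (minus strand), chrIII:10989609-10989628 (plus) and chrV:11980056-11980075 (plus), and those of the pair at chrX:2328926-2328945 (plus) and chrX:14324559-14324578 (minus), with capitals for bases that match a fixed position.
sup-6 element: CGGAACCCGCcAcaTGTCgG
R07E5.16 element: CGGAACCCatgAcaTGTCtG
T11F9.15 element: CGaAAgCCGCgAttTGTCgG
mir-8196a element: CGGAACCCGgcAggTGTCgG
mir-8196b element: CcaAACCCGCgAggTGTCgc

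mir-8196a scored 29.6 bits with 15 of the 16 fixed positions, from −68 to −49 bp, and ranked 1 of 261 miRNA genes. mir-8196b scored 24.7 bits with 13 of 16, from −61 to −42 bp, and ranked 2. Bound snRNA genes had a median of 25.6 bits, a first quartile of 24.6 and a range of 4.07 to 34.3. The element was built from these genes, so their scores are not independent of it. The 61 unbound snRNA genes had a median of 13.6 bits. Some of the unbound also passed 24.6 bits, such as Y69A2AR.36 with 34.3, so such a score does not mark binding. The mir-8196 pair were the 2 miRNA genes at or above the first quartile of the bound snRNA genes. In both, the pooled summit lay within the matched stretch. The aligned 100 bases before the pair were identical in 80 of 107 columns, or 74.8%, less than their hairpins.

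mir-2214, although it had the strongest peak of the class, scored −0.506 bits with 6 of 16 fixed positions and ranked 34. It does hold TGTCTG, which fits the last 6 bases of the element, at −56 bp, where the pooled summit lies. TGTCNG, searched on the gene strand alone, began 40 to 75 bp upstream in mir-2214 and mir-8196a among the 10 bound miRNA genes, and in 6 of the 251 unbound ones, or 2.39%. It did so in 24 of the 37 bound snRNA genes, or 64.9%, and in 27 of the 61 unbound ones, or 44.3%.

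mir-2214 also held TATATAA at −31 bp on the gene strand. No other miRNA gene, bound or unbound, held these letters in the 50 bases before it. Only this exact string was searched, after the data were seen, and looser forms were not. A run of TTTT began 1 bp after the 3' end of mir-2214. Such a run within 50 bp after the gene was common in the class, at 9 of 10 bound and 158 of 251 unbound genes, or 62.9%. The 100 bases upstream were 42% G and C in mir-2214, 60% in mir-8196a and 59% in mir-8196b, against medians of 45.0% for bound and 38% for unbound miRNA genes. These letter matches are descriptions and do not show a functional site.

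**Figure D4:**
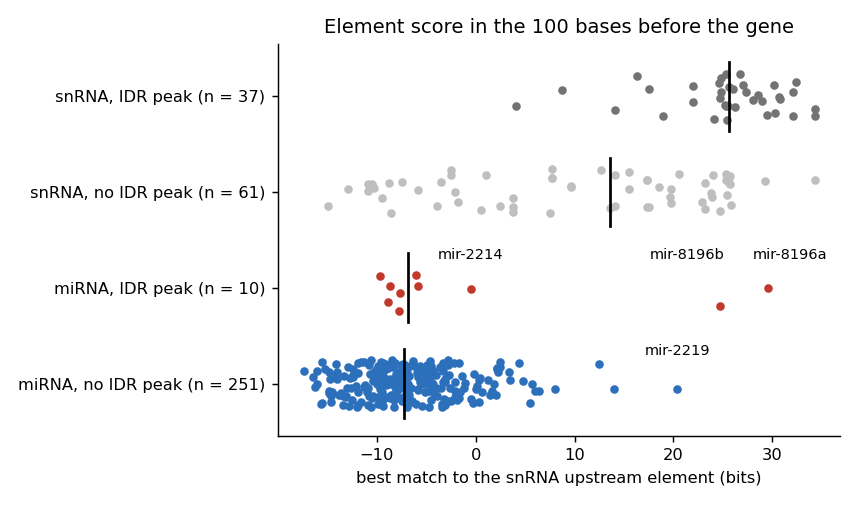
Score in bits of the best match to the snRNA upstream element in the 100 bases before each gene, 1 point per gene, with black bars for the medians. Points are spread vertically for display only. The bound miRNA genes centre on −6.85 bits and the unbound on −7.25, and mir-8196a and mir-8196b alone among miRNA genes reach the first quartile of the bound snRNA genes, 24.6 bits.

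The 3 genes differ in their surroundings. mir-2214 lies in an intron of the coding gene B0361.11 on the same strand, 1116 bp from its 5' end. The noncoding RNA B0361.13 lies upstream on the other strand. The mir-2214 summit was at −128 bp from the 5' end of B0361.13, and the IDR peak overlaps both genes. Whether the peak belongs to mir-2214, to B0361.13 or to both cannot be told apart. mir-8196a overlaps the long noncoding RNA linc-154 on the same strand, and the summit was at −6750 bp from the nearest coding 5' end, that of T01B6.1. mir-8196b lies in an intron of prx-1, which encodes a peroxisome biogenesis factor, on the opposite strand, and its summit was 1428 bp downstream of the nearest prx-1 5' end. No coding 5' end lay within 500 bp of any of these summits.

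let-7, which drives the transition from larva to adult, has 3 annotated primary transcripts. Its summit lay at −378 bp from the hairpin in the pooled list, at −379 bp in replicate 1 and at −388 bp in replicate 2. That is 672 bp inside the longest transcript, at −169 bp from the 5' end of the middle one and at −353 bp from that of the shortest. The noncoding RNA C05G5.8, on the opposite strand, spans the summit. The nearest coding 5' end was that of C05G5.7, with the summit at −869 bp.

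**Figure D5:**
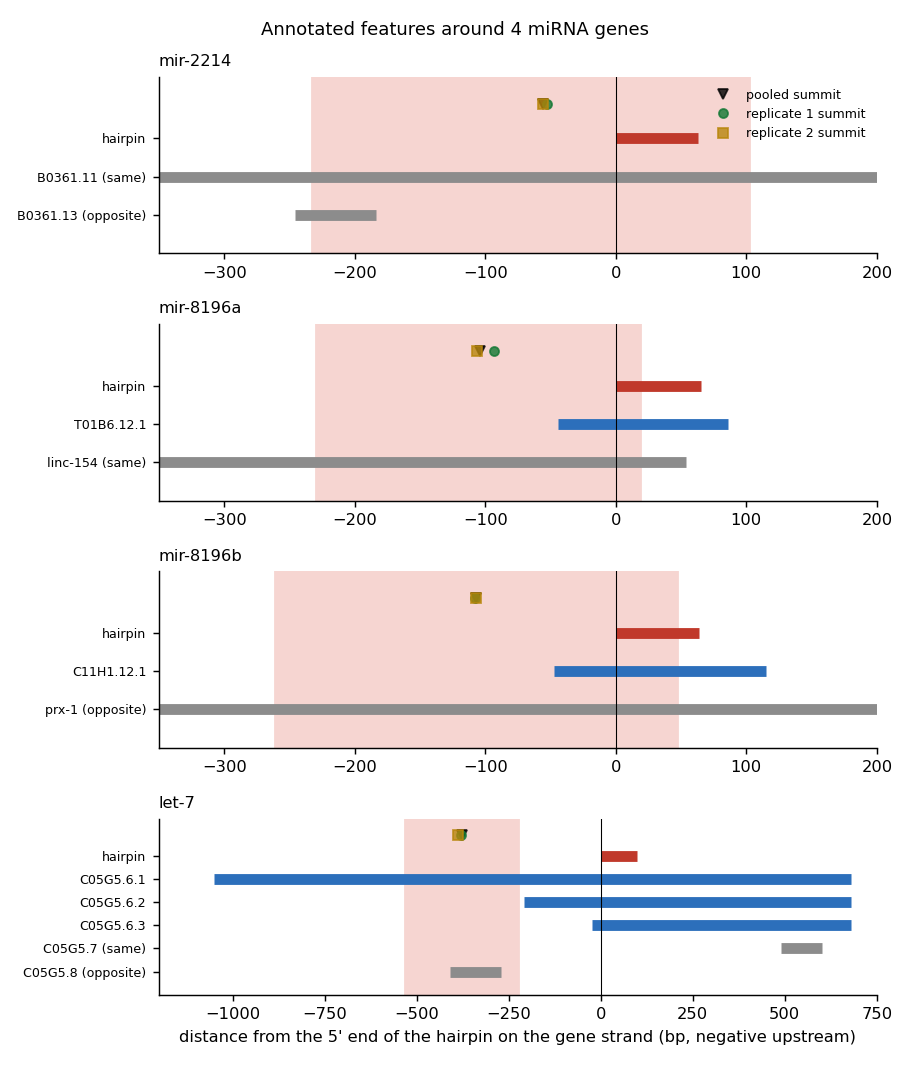
Annotated features around mir-2214, mir-8196a, mir-8196b and let-7, as distance in bp from the 5' end of the hairpin on the gene strand, negative upstream. Red bars are hairpins, blue bars primary transcripts, grey bars other genes with their strand relative to the miRNA, pink shading the IDR peak, and symbols the pooled and replicate summits. The summits lie just before the annotated 5' end in the first 3 panels and inside the longest transcript of let-7 in the last.

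2 bound genes lay by coding promoters. At mir-5549 the summit was at −24 bp from the hairpin and at −144 bp from the 5' end of rfc-4, a replication factor C subunit gene that runs the other way. At mir-5595 the summit was at −170 bp from the hairpin and at −253 bp from the 5' end of an internal transcript of nurf-1, a chromatin remodelling factor gene on the opposite strand. Whether a peak belongs to the miRNA gene or to the coding gene cannot be told apart at these loci.

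The other 4 summits were farther from coding starts. That of mir-54 was at −250 bp from the hairpin, exactly at the edge of the window, in an intron of F09A5.3 on the opposite strand. It was at −73 bp from the 5' end of the noncoding RNA F09A5.11. Being nearer to F09A5.11, this peak cannot be assigned to mir-54. The summit of mir-53 was at −97 bp, and 1397 bp downstream of the 5' end of hrg-5, outside that gene. That of mir-49 was at −143 bp, and at −4200 bp from F19C6.5. That of mir-80 was at −189 bp, with the noncoding RNA K01F9.6 antisense to the hairpin. None of the 4 had a best element match above −7.69 bits.

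Bound and unbound miRNA genes were then compared by position. Of the bound, 4 of 10 were intronic (40%, interval 12.2 to 73.8%), 6 lay between coding genes and 0 were exonic, where an upper bound of 30.8% applies. Of the unbound, 93 of 251 were intronic (37.1%), 147 lay between coding genes (58.6%) and 11 were exonic. The intronic shares are not distinguishable at this number. The host gene was on the opposite strand for 3 of the 10 bound genes (interval 6.67 to 65.2%) and for 30 of the 251 unbound (12%). It was on the same strand for mir-2214 alone of the bound, and for 74 unbound (29.5%).

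A coding 5' end lay within 500 bp of the hairpin 5' end for 3 of 10 bound and 46 of 251 unbound genes (18.3%). Another miRNA gene lay within 1000 bp for 1 of 10 bound, mir-54, and for 61 of 251 unbound genes (24.3%). Both unbound shares lie within the intervals of the bound ones, 6.67 to 65.2% and 0.253 to 44.5%. By chromosome, 5 of 74 miRNA genes on X were bound, 3 of 27 on III, 1 of 49 on II, 1 of 50 on IV, 0 of 33 on I and 0 of 28 on V.

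Beyond the IDR list, 65 miRNA genes, or 24.9%, had a pooled candidate within 250 bp, against 37.8% of all genes. In replicate 1 it was 17.6% against 30.0%, and in replicate 2 it was 21.5% against 37.7%. miRNA genes were thus below the background in each relaxed list, and their gene bodies are short, with a median span of 95 bp among the unbound. No list held a summit for 171 of the 261. The 55 genes with a pooled candidate but no IDR summit had a median signal of 8.61, against 7.87 for all pooled peaks outside the IDR list. Their summits lay upstream of the hairpin 5' end in 26 of 55 cases, and both replicate lists held a summit for 15 of them.

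The 5 strongest of these 55 were mir-8209, mir-56, mir-355, mir-4934 and mir-52. mir-8209 had a replicate 2 signal of 25.8 and a replicate 1 signal of 3.22, with its pooled summit at −94 bp from the hairpin and 63 bp inside its primary transcript. mir-56, a mir-51 family member, had a pooled signal of 21.3 at 212 bp, downstream of its hairpin 5' end, with 2.64 in replicate 1 and 5.55 in replicate 2. Its replicate 1 summit, at rank 14213, also lay in the window of mir-55, which held no pooled summit, so these values come from different summits. mir-355 had a pooled signal of 21.1 at −214 bp, with 18.9 in replicate 2 and no replicate 1 summit in the window.

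mir-4934 had a pooled signal of 20.1 at 133 bp, downstream of its hairpin, with 4.03 and 16.7 in replicates 1 and 2. Its pooled summit was at −406 bp from the 5' end of mtr-4, an RNA helicase gene of nuclear RNA surveillance. mir-52, also of the mir-51 family, had a pooled signal of 18.7 downstream of its hairpin, at 301 bp. Its strongest replicate 1 summit was elsewhere, at −108 bp with signal 15.4, and its replicate 2 summit was at 159 bp with signal 14.4. The pooled list held a second summit in the window, at the same −108 bp.

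Of 12 genetically studied miRNA genes chosen by name, only let-7 had an IDR summit within 250 bp of the gene body (8.33%, interval 0.211 to 38.5%). A pooled candidate lay there for 7 of them (58.3%, interval 27.7 to 84.8%). The shares of all annotated genes, 4.39% and 37.8%, lie within these intervals. lin-4, the founding heterochronic miRNA, and lsy-6, which sets the fate of a taste neuron, had no summit within 250 bp in any of the lists, nor had mir-35, of an embryonic family, nor the let-7 sisters mir-84 and mir-241. The sister mir-48 had a pooled candidate of 7.77. The muscle gene mir-1 had 7.98, the neuronal gene mir-124 had 9.33, and mir-51 had 8.95. mir-71, linked to lifespan, had 14.9, and the abundant mir-58a had 5.61. These in-window values were all below the lowest IDR signal of 28. Beyond 250 but within 500 bp of the gene, mir-58a had an IDR summit of signal 42.7 at 422 bp from its hairpin 5' end, mir-241 one of 30.2 at −376 bp and mir-124 one of 28.9 at −478 bp.

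4 short sequences that had been seen at SNPC-4 peaks were searched on both strands within 100 bp of each bound summit. AGACGCAG was found at let-7 alone of the 10, and in 15% of all IDR windows and 2.76% of the other pooled windows. CGGAACCC was found at mir-8196a alone, where it begins the element, and in 6.92% and 0.743% of the windows. GCCGACAC was likewise found at mir-8196a alone, overlapping the end of the element on the opposite strand, and in 6.87% and 1.18%. CTGTTTCA was found at none of the 10, and in 0.644% and 2.66%.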

How the data were processed

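Per the labels, the data are ChIP-seq of eGFP-tagged SNPC-4 from 2 biological replicates with fragments of 150 to 350 bp. Per the deposited description files, the authors called relaxed peak lists against a control alignment, per replicate and on pooled reads, and passed them to the IDR procedure. The deposited signal value is the authors' peak strength. Whether it is scaled to depth, how reads with several alignments were treated, the aligner and the peak caller are not given in the sources used here. Only the ce11 lists were read, whose assembly is that of Ensembl release 115 (WBcel235) and of the RefSeq genome.

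The strongest summit within 250 bp of each gene was taken from every list, with Python 3.11.15, pandas 2.3.3 and Biopython 1.88. Names are Ensembl's without the species prefix, and let-7 is the RefSeq symbol. Summit assignment was tested on simulated data. All results are counts, medians and exact intervals, without tests, because there is 1 group and genes are not replicates. The members, gene lists, motifs and measures were chosen with earlier results of these data known. Named genes were those bound, the 5 next strongest pooled candidates and 12 well-known genes. The distance band of 40 to 75 bp, the snRNA element, the searches for shorter letters and the replicate gaps were added after the data were seen. The element search was seeded with CGGAACCC at its start and with TGTCGG at its end.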

Additional observations from a re-analysis of the deposited data

How the results depend on the processing

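Changing the window changed which genes counted as bound. With 100 bp, 6 genes were bound, 2 of them intronic and 6 upstream, with 29 pooled candidates, a median distance of −100.5 bp and a median signal of 87.4, and mir-49, mir-54, mir-5595 and mir-80 were lost. With 500 bp, 19 were bound, 12 intronic and 16 upstream, with 107 pooled candidates and a median distance of −170.0 bp, and the genes gained were mir-124, mir-1824, mir-229, mir-241, mir-253, mir-4929, mir-55, mir-55b and mir-58a. Of these, mir-55 and mir-55b were gained through the peak of mir-54, of signal 54.3 at rank 621. The share of all annotated genes was not computed at 100 or 500 bp, so these counts cannot be set against a background. The window around the hairpin 5' end alone lost let-7 and gave a median distance of −107.0 bp. The stronger 932 IDR peaks lost mir-49, mir-53 and mir-80 and gave −107.0 bp. Leaving out a replicate gave 9 to 11 bound genes and median distances of −108.0 to −106.0 bp. A single replicate has no IDR list, so bound there meant a summit among the strongest peaks of the remaining replicate list. In replicate 2, for example, mir-80 ranked 2052 and mir-8209 ranked 1506. The replicate lists differ in length, so these counts are not like the IDR count. Without replicate 1, mir-49 and mir-80 were lost and mir-8209 gained, and without replicate 2, mir-53 and mir-54 were lost and mir-4929, mir-52 and mir-90 gained. mir-2214, mir-8196a, mir-5549 and mir-8196b were in none of these losses. Each shift accompanied a changed window or list, and its cause was not tested. No paired analysis was possible because there is 1 group. With 10 bound genes, shares have wide intervals, and depth is unknown.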

Other observations

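mir-2219 had the third best element match of all miRNA genes, at 20.4 bits from −92 to −73 bp, and no IDR summit, with a pooled candidate of signal 5.64. mir-90 had a replicate 1 signal of 11.1 at rank 910, a replicate 2 signal of 9.96 at rank 7004 and a pooled signal of 9.66. These came from different summits, at −240, −25 and 248 bp from its hairpin in that order. mir-4929 had a replicate 1 summit at the 5' end of its hairpin, with signal 8.27 at rank 1504, and no summit within 250 bp in the other lists. A miRNA name also occurs outside the class: mir-1831 is annotated as an snRNA gene of 22 bp. It was not counted as a miRNA gene, but is 1 of the 99 snRNA genes whose upstream share is given above. It lies within the snRNA gene sup-39 on the same strand. An IDR summit of signal 765.8 at rank 38 lay at −51 bp from the 5' end of sup-39 and at −58 bp from that of mir-1831, and cannot be assigned to mir-1831.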
